A study of Mus musculus with 8 samples.

Results

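The response of a corticotrope cell line to 3 h of epidermal growth factor (EGF) was read from 4 RNA-seq libraries of AtT-20 cells, mouse corticotrope tumour cells whose main hormone gene, Pomc, encodes the precursor of ACTH. All 4 came from AtT-20 cells into which the EGF receptor, EGFR, had been introduced: 2 libraries of cells given water and labelled as the control at 3 h (water 1 and water 2), and 2 of cells given EGF for 3 h (EGF 1 and EGF 2). The series also holds 2 libraries of a Neo control line in water and 2 of the EGFR line after 18 h of EGF, which enter the fit and are used for comparison only. Of 12193 gene loci with values, 9442 were protein-coding genes, and the 9138 of these at an FPKM of at least 1 in 2 or more of the 4 libraries are described here. FPKM, fragments scaled by gene length and by the library's total, allows levels to be compared between genes. A further 304 protein-coding genes were below that level, and 648 small RNA loci were left out.

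EGF binds EGFR at the cell surface and switches on its tyrosine kinase. The receptor then feeds the RAS and ERK kinase cascade, which induces early transcription factors and its own inhibitors, and the PI3K and AKT kinases, which keep FOXO transcription factors out of the nucleus. It can also activate STAT3, a transcription factor that the title of the series names as the link between EGF and the POMC gene. In corticotropes of the pituitary, EGFR is known for its part in Cushing's disease, in which tumours of these cells make too much ACTH.

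The labels are silent on the promoter that drives the introduced EGFR, on its species and on whether the line is 1 clone. No EGF was given to the Neo line, so a response that does not need the introduced receptor cannot be told apart from one that does. The labels do not say that replicates came from separate cultures, so every p-value below measures only the spread between these libraries, which may be technical. Egfr stood at 25.9 and 27.5 FPKM in the water libraries and at 28.8 and 30.6 after EGF, against 0.227 and 0.0663 in the Neo line. Corticotrope markers present in all 4 libraries were Pomc (6981 to 8307 FPKM), Tbx19 (83.8 to 92.4) and Pcsk1 (353 to 397). Neurod1 (10.8 to 12.4) and Pitx1 (10.8 to 11.2) were present too, whereas Crhr1, another corticotrope marker, was not among the 9138 genes. Of the markers of other pituitary cells, only Sox2 and Gata2 passed the FPKM filter (0.037 median log2 fold change, 0 called higher and 0 lower), and of the fibroblast, endothelial and blood cell markers 0 were among the 9138 genes. The labels state no depth, and the steps between the lowest FPKM values of 15 to 23 loci per library put it at roughly 53.5 to 63.4 M fragments, or 63.98 to 74.24 M if 200 bases are taken off each length.

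EGF for 3 h changed many genes by a little and few by much. Of the 9138 protein-coding genes, 1206 were higher (13.2%) and 1889 lower (20.7%) than in water at a limma adjusted p below 0.05, and 6043 did not pass. Over all 10874 loci tested, 11.8% were higher and 19.7% lower. The quartiles of the log2 fold change were −0.13 and 0.076, with a median of −0.035 and a median standard error of 0.047. The called increases had a median log2 fold change of 0.23 and the called decreases one of −0.21. At least 1.5-fold changes numbered 103 upward (1.13%) and 31 downward (0.339%), and at least 2-fold changes 35 upward (0.383%) and 5 downward (0.0547%). In every called gene the 2 EGF libraries lay on one side of the 2 water libraries. Among all 9138 genes they did so in 2664 upward and 4002 downward. With 2 libraries per group, many genes separate in this way without any change, so these counts are only a description. The counts rest on few libraries: without water 1, water 2 or EGF 1 the increases numbered 640, 581 and 733 and the decreases 721, 754 and 853, and without EGF 2 they numbered 983 and 1975. Fold changes are on the scale of log2(FPKM + 1), which understates those of low genes.

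**Figure D1:**
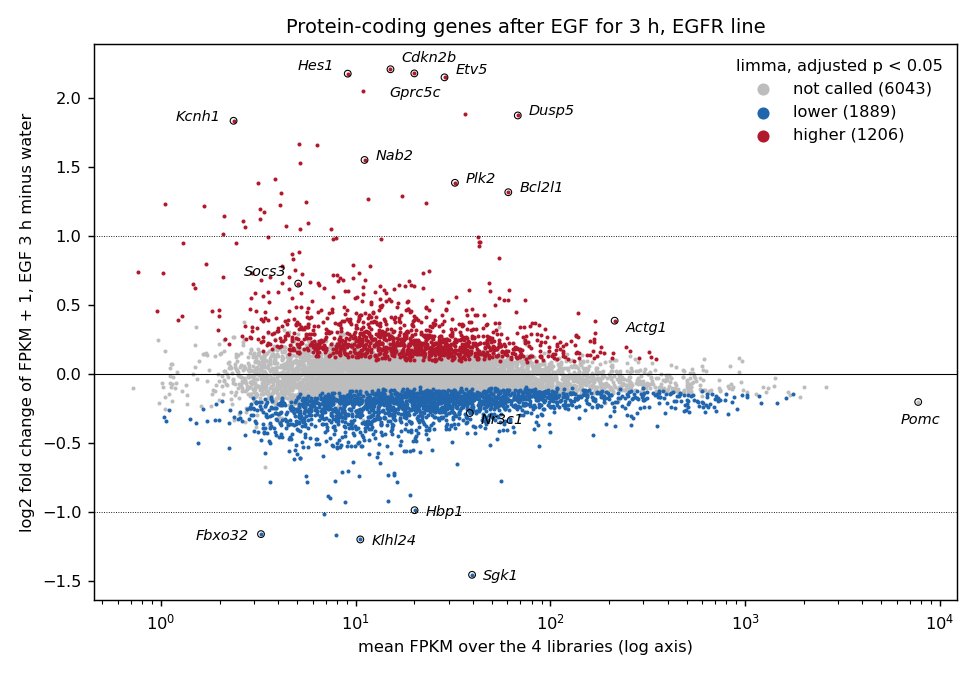
Each point is 1 of 9138 protein-coding genes, with its mean FPKM over the 4 libraries on a log axis and its log2 fold change (EGF 3 h minus water, FPKM + 1) on the other. Red and blue mark the 1206 genes called higher and 1889 called lower, dotted lines mark 2-fold changes (35 upward and 5 downward), and Pomc stands alone at the high end, grey.

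The balance of the 2 directions depended on the scaling of the libraries. Increases made up 39.0% of the calls, against 51.9% after median-ratio scaling (1605 higher and 1485 lower) and 62.6% after scaling to a common sum over protein-coding genes (1916 higher and 1143 lower). It also moved with transcript length. Genes whose longest protein-coding transcript was at most 750 bases had a median log2 fold change of −0.15, with 1.57% called higher and 45.3% lower, and those above 6000 bases had a median of 0.043, with 20.3% higher and 10.0% lower. The 2 EGF libraries differed from each other in the same manner, by a median of −0.070 (EGF 1 minus EGF 2) in the shortest class and 0.015 in the longest, while the 2 water libraries differed by −0.0044 and 0.019. After the length trend was taken out of each library, an alternative added after seeing the data, 1444 genes were higher and 1288 lower. Counts after that correction are given below for histones, ribosomal proteins, the respiratory chain, the proteasome and some other lists, not for every list. Among lists without them, corticotrope genes went from 4 higher and 8 lower to 5 and 6. The tRNA synthetases and ATF4 targets went from 2 and 10 to 8 and 11. Genes of heat shock and oxidative stress went from 4 and 4 to 10 and 2. KLF and SP factors kept 4 and 1. The part of the length trend in the small decreases was not tested otherwise.

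**Figure D2:**
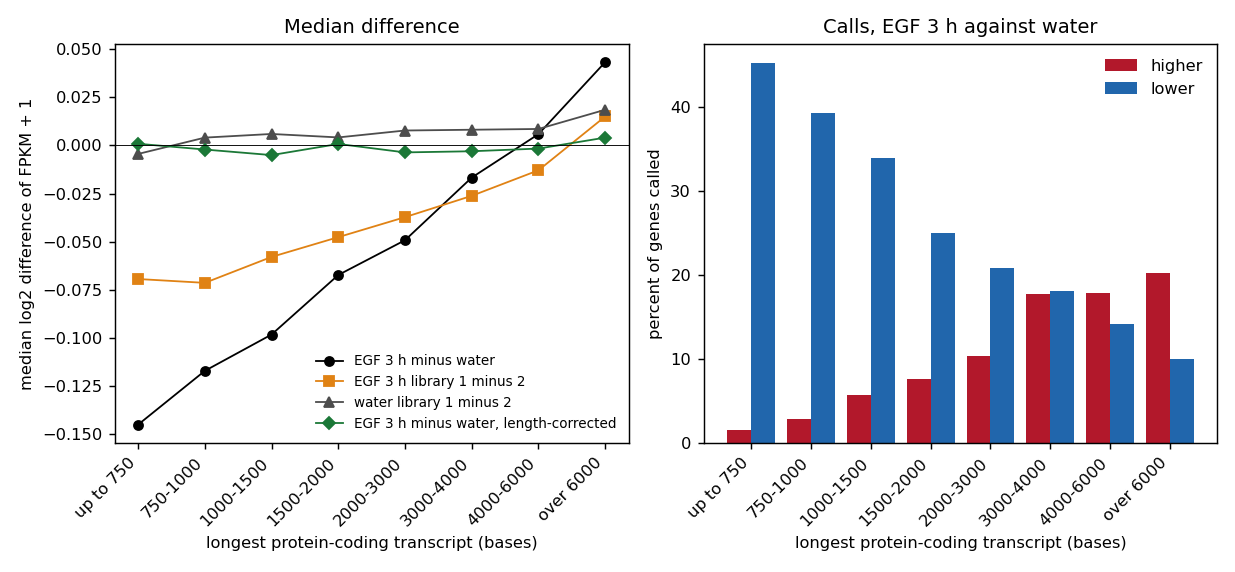
Left, the median log2 difference of FPKM + 1 in 8 classes of longest protein-coding transcript (bases) for EGF 3 h minus water before and after length correction and for the libraries of each group against each other. Right, the percent of genes called higher or lower in each class: the share called lower falls from 45.3% in the shortest class to 10.0% in the longest.

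Among the genes that rose most were those for a cell cycle inhibitor, a Notch-type repressor, an ETS factor and an ERK phosphatase. Cdkn2b (ENSMUSG00000073802, chromosome 4, 89306289 to 89311032, minus strand), the inhibitor of the G1 kinases CDK4 and CDK6 known as p15, stood at 4.66 and 4.77 FPKM in water and at 25.2 and 25.6 after EGF. Its log2 fold change was 2.21 ± 0.040 (SE), at a limma adjusted p of 2.67e-07, and the spread within either group was below 1 FPKM. Hes1 (ENSMUSG00000022528), a repressor best known as a target of Notch, went from 2.399 and 2.92 FPKM to 16.2 and 14.8 (log2 fold change 2.18 ± 0.093, limma adjusted p = 2.08e-05). Both EGF libraries were several times above both water libraries in these genes. Etv5 (ENSMUSG00000013089, chromosome 16, 22381309 to 22439719, minus strand), an ETS transcription factor that ERK signalling induces, read 9.72 and 9.997 FPKM in water and 46.7 and 47.8 with EGF (2.15 ± 0.037, limma adjusted p = 2.67e-07). Dusp5 (ENSMUSG00000034765, chromosome 19, 53529109 to 53542431, plus strand), a nuclear phosphatase that switches ERK off, read 29.04 and 28.02 FPKM in water and 106 and 109 with EGF (1.88 ± 0.046, limma adjusted p = 1.52e-06). Of the increases of at least 2-fold, that of Dusp5 was the largest in FPKM.

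Other large increases included several signalling proteins. Gprc5c, an orphan receptor of the G protein-coupled family, had 7.0003 and 6.18 FPKM in water and 31.5 and 35.3 after EGF (2.18). Stc1, a secreted glycoprotein, had 3.44 and 3.76 FPKM in water and 19.1 and 17.1 with EGF (2.05), and Enc1, a kelch protein that binds actin, 15.2 and 14.7 in water and 57.5 and 58.4 with EGF (1.89). The groups stood well apart in all 3. Sh2d5, an SH2 domain adapter, had 1.93 and 1.89 FPKM in water and 7.902 and 8.61 after EGF (1.67), Synj2, a phosphoinositide phosphatase, 2.13 and 2.203 in water and 8.35 and 7.91 with EGF (1.53), and Tec, a cytoplasmic tyrosine kinase, 3.05 and 3.01 in water and 7.16 and 7.54 with EGF (1.05). Garem1, an adapter of the EGF receptor and ERK, had 2.59 and 2.37 FPKM in water and 6.51 and 6.15 with EGF (1.07). Sh2d5, Synj2, Tec and Garem1 were low in water, under 4 FPKM, and reached 6.15 to 8.61 FPKM.

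Repressors and stress-type regulators were among them too. Nab2, which binds and restrains EGR transcription factors, had 5.0999 and 5.19 FPKM in water and 16.3 and 17.7 after EGF (1.55 ± 0.056, limma adjusted p = 9.99e-06). Bhlhe40, a repressor of the circadian clock, had 2.92 and 2.15 FPKM in water and 9.61 and 10.6 with EGF (1.66), with the 2 water libraries further apart in proportion than the EGF libraries. Plk2, a polo-like kinase induced by growth factors and by p53, had 17.4 and 17.4 FPKM in water and 46.2 and 48.2 after EGF (1.39 ± 0.032, limma adjusted p = 1.34e-06). Bcl2l1, which encodes the survival protein BCL-XL, had 34.7 and 33.97 FPKM in water and 85.5 and 88.7 with EGF (1.32 ± 0.037, limma adjusted p = 3.11e-06). The 2 libraries of each group lay within 4 FPKM of each other in Plk2 and Bcl2l1, against a difference of 29.8 and 52.8 FPKM between the group means. Ier3, an early response gene tied to survival (1.41), Maff, a small MAF protein (1.06), Igtp, an immunity-related GTPase (1.23), Nfkbie, an inhibitor of NF-kB (1.17), Sgms2, a sphingomyelin synthase (1.24), Scml4, a polycomb-type protein (1.30), Trim62, a ubiquitin ligase (1.25), and Slc22a23, an orphan transporter (1.10), completed the largest increases together with Rhbdf2 and Hbegf, described with the receptor.

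The bases before the start sites of 5 increased genes are shown because each holds a match to the binding site of a factor whose pathway is described here. They were picked after the matches were seen and are a description of the sequence. Each runs 5′ to 3′ from 200 bases before the RefSeq start (build GRCm38.p6) and stops before the gene's own first annotated exon. Capitals mark the matches to a serum response element (CArG box, by name), a cAMP response element (TGACGTCA), a STAT site (TTCNNNGAA) or a sterol regulatory element (TCACNCCAC), searched on both strands with no overlap between the matches shown.
Dusp5, chr19:53528945-53529108, plus strand: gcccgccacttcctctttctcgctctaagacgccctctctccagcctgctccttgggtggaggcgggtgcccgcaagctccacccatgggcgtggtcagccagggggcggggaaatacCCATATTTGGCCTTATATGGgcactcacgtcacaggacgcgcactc
Cdkn2b, chr4:89311040-89311232, minus strand: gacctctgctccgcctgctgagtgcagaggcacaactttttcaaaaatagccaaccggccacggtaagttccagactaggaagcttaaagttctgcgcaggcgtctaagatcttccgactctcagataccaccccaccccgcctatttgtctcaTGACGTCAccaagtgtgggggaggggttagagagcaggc
Plk2, chr13:110394844-110395043, plus strand: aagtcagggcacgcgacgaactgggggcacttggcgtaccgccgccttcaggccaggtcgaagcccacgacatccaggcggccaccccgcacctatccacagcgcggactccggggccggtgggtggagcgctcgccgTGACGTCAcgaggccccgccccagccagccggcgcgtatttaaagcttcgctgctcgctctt
Socs3, chr11:117969452-117969566, minus strand: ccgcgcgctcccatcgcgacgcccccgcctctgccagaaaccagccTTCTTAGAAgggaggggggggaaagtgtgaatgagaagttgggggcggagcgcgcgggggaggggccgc
Hmgcs1, chr13:119690151-119690350, plus strand: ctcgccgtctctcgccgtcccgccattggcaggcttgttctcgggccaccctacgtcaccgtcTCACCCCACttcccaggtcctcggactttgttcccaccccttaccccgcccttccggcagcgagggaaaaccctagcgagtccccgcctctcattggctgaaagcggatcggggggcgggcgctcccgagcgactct
The Dusp5 stretch holds 2 serum response elements side by side, at −82 to −73 and −72 to −63 from the start. The cAMP response element lies at −46 to −39 in Cdkn2b and at −62 to −55 in Plk2, the STAT site of Socs3 at −154 to −146 and the sterol element of Hmgcs1 at −137 to −129. Of all 32851 RefSeq promoters in the table, 1.18% hold a serum response element in those 200 bases, 1.47% a cAMP response element, 5.49% a STAT site and 0.858% a sterol regulatory element. Of the 9157 promoters of the protein-coding genes described here, 0.95%, 2.77%, 4.2% and 0.808% hold them, in the same order. Of the 45 genes with the largest changes, 30 had an entry. Besides Cdkn2b and Plk2, Maff held a cAMP response element, Igtp, Foxn3 and Sgms2 held a STAT site and Fbxl20 a sterol element. Other motifs were searched in the same way. An AP-1 site (TGANTCA; 5.48% of all promoters and 2.96% of those described) stood in Nfkbie and Sgms2, a forkhead site (GTAAACA; 2.51% and 1.53%) in Etv5, Hbp1 and Sgms2, and an E-box (CACGTG; 5.26% and 7.69%) in Maff and Sgms2. An ETS site (CCGGAAGT; 2.68% and 6.46%) was found in none of the 30.

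The decreases were smaller. Several of the largest, though not all, were in genes known as targets of FOXO factors or of the glucocorticoid receptor. Sgk1 (ENSMUSG00000019970, chromosome 10, 21882184 to 21999903, plus strand), a kinase induced by glucocorticoids and by FOXO, stood at 58.6 and 58.3 FPKM in water and at 20.5 and 20.97 after EGF (log2 fold change −1.45 ± 0.054, limma adjusted p = 1.02e-05). Klhl24 (ENSMUSG00000062901), an adapter of a ubiquitin ligase, went from 15.5 and 14.7 to 6.24 and 5.802 FPKM (−1.20 ± 0.047, limma adjusted p = 1.31e-05). Amotl2, a junction protein of the Hippo pathway, had 11.1 and 11.6 FPKM in water and 4.497 and 4.47 after EGF (−1.17). In all 3 both EGF libraries were far below both water libraries, with little spread within either group.

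Transcription factors also fell. Mycl, a MYC family member, had 9.66 and 9.31 FPKM in water and 4.34 and 4.07 after EGF (−1.01), and Hbp1, a repressor of cell cycle genes, 27.4 and 26.5 in water and 12.3 and 13.97 with EGF (−0.98). Foxn3, a forkhead repressor, had 18.4 and 20.7 FPKM in water and 9.13 and 10.6 with EGF (−0.92). Nr4a2, an orphan nuclear receptor that can act on the Pomc promoter, had 18.9 and 17.995 FPKM in water and 10.3 and 11.2 with EGF (−0.73). Mxd4, an antagonist of MYC (−0.74), Ccng2, a cyclin that slows the cycle (−0.78), Ypel3, linked to growth arrest (−0.78), and Trp53inp1, a p53 target of autophagy (−0.71), fell as well.

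Enzymes and less known genes made up the rest of the largest decreases. Tat, the tyrosine aminotransferase induced by glucocorticoids, had 11.1 and 12.6 FPKM in water and 5.53 and 5.99 after EGF (−0.92). Fbxl20, an F-box protein, had 9.66 and 9.52 FPKM in water and 5.22 and 4.33 with EGF (−0.88), and Prr15l 24.1 and 25.4 in water and 13.1 and 13.03 with EGF (−0.88). The EGF values of Prr15l were almost equal. Trmt9b, a member of the tRNA methyltransferase family (−0.90), Abhd15, a lipase-like protein (−0.77), Aldh1b1, a mitochondrial aldehyde dehydrogenase (−0.73), Narf, a nuclear prelamin-binding protein (−0.74), and Spsb2, a SOCS box adapter (−0.71), fell by 0.71 to 0.90 on the log2 scale.

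Some genes crossed 1 FPKM. At or above it in both EGF libraries and in neither water library were 11 genes, all called higher. They are counted here only through the EGF libraries, so the choice fixed their direction and kept the groups apart, and the calls are a description. Kcnh1, a voltage-gated potassium channel, had 0.456 and 0.481 FPKM in water and 4.28 and 4.205 after EGF (1.84), and Il6ra, the receptor subunit for interleukin-6, 0.608 and 0.604 in water and 2.77 and 2.7002 with EGF (1.22). Kcnf1, a modifier subunit of potassium channels, had 0.963 and 0.888 FPKM in water and 3.27 and 3.26 with EGF (1.15), and Sox8, a transcription factor, 0.608 and 0.521 in water and 2.08 and 1.96 with EGF (0.95). Others were 9230104L09Rik (0.74), Vipr1, a receptor of vasoactive intestinal peptide (0.66), Pcdh17, a protocadherin (0.63), Chsy3, a chondroitin synthase (0.46), and Mmp28, a matrix metalloproteinase (0.39). In the other direction were 7 genes, kept only through the water libraries, of which Tesk2 (−0.34), Gm26566 (−0.31) and Gm10645 (−0.26) passed the test, and Arg2 (−0.091), Prickle3 (−0.16), Gm21988 (−0.21) and Apof (−0.25) did not. All 7 were close to 1 FPKM in both groups, between 0.711 and 1.46. The calls of Tesk2 and Gm26566 were lost without water 1, water 2 or EGF 1, that of Gm10645 with any library left out, and that of Mmp28 without water 1.

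Genes were next grouped by lists of known function. The lists were drawn up with earlier results of these data known, so their direction is not independent evidence, and each is described by its counts and its median log2 fold change beside those of all 9138 genes (13.2% higher, 20.7% lower, median −0.035). Where leaving out 1 library moved a count by over 1.5 times, the counts without water 1, water 2, EGF 1 and EGF 2 are given in that order. Where common-sum scaling shifted the split between increases and decreases, its counts are given as well.

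The genes around the receptor that rose include some that supply or release its ligands and some that restrain it. Of 21 genes of the EGFR family, its ligands and their regulators, 6 rose, 1 fell and 14 did not pass (median 0.10). Hbegf, which encodes the EGFR ligand heparin-binding EGF, had 6.296 and 6.45 FPKM in water and 16.8 and 16.8 after EGF (1.27 ± 0.037, limma adjusted p = 3.94e-06). Rhbdf2, the inactive rhomboid protein that brings the ligand-cutting protease ADAM17 to the surface, had 1.97 and 1.93 FPKM in water and 6.46 and 6.23 with EGF (1.31 ± 0.062, limma adjusted p = 3.66e-05). Both genes stood more than 2-fold above water in both EGF libraries. Adam17 itself had 10.3 and 9.95 FPKM in water and 11.7 and 11.9 with EGF (0.20). The feedback inhibitor Errfi1, also called MIG6, rose (9.86 and 9.697 to 14.7 and 15.96 FPKM, 0.60), as did Lrig1, which promotes receptor breakdown (0.27), and Ptpn11, the phosphatase SHP2 (0.14). Ptpn11 lost its call with any library left out and Adam17 without water 2. Erbb3, the kinase-poor partner of EGFR, fell from 5.59 and 5.55 to 3.44 and 3.52 FPKM (−0.55 ± 0.046, limma adjusted p = 3.80e-04). Egfr did not pass (0.15 ± 0.072, limma adjusted p = 0.157).

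Feedback genes of the ERK cascade had the highest median of the 55 lists. Of 16 measured, 10 rose, 2 fell and 4 did not pass, with a median of 0.37. Spred1 and Spred2 inhibit RAS. Spred1 stood at 1.996 and 2.04 FPKM in water and 5.35 and 4.72 with EGF and Spred2 at 2.88 and 3.06 FPKM in water and 5.198 and 4.85 with EGF (0.60), each a called increase. Dusp4, another nuclear ERK phosphatase, had 29.8 and 28.3 FPKM in water and 56.7 and 58.02 after EGF (0.96 ± 0.040, limma adjusted p = 1.91e-05), and Dusp7, the cytoplasmic one, 4.15 and 4.22 in water and 5.99 and 5.31 with EGF (0.36). The phosphatases were not uniform. Dusp1, which acts mainly on the stress kinases p38 and JNK, had 5.03 and 4.9004 FPKM in water and 4.29 and 4.53 with EGF and did not pass (−0.14), and Dusp10, with the same preference, fell (−0.17). Etv1, an ETS factor close to Etv5 in sequence, fell from 51.5 and 48.2 to 39.98 and 40.1 FPKM (−0.31 ± 0.052, limma adjusted p = 0.00582). The count of decreases was 1, 1, 1 and 1, without Dusp10.

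Immediate early factors split. Among 22, 12 rose, 5 fell and 5 did not pass (median 0.20). Higher were Klf10 (14.96 and 14.7 to 24.3 and 23.3 FPKM, 0.64), Mafk (0.53), Egr2 (0.47), Nab1 (0.43), Klf4 (0.40) and Srf (7.08 and 7.24 to 9.28 and 9.68 FPKM, 0.36), the serum response factor. Lower were Jun (17.6 and 17.2 to 13.7 and 13.9 FPKM, −0.32), Atf3 (13.7 and 14.1 to 9.88 and 10.99, −0.38), both parts of AP-1 type dimers, Btg2 (−0.23), Arc (−0.21) and Nr4a2. The log2 fold changes of the list thus ran from −0.73 in Nr4a2 to 1.55 in Nab2. Arc lost its call without water 1, water 2 or EGF 1. Of the 12 nuclear effectors of MAPK and SRF, 5 rose and 0 fell, among them the cytoskeletal SRF targets Actg1, cytoplasmic actin (187 and 182 to 234 and 251 FPKM, 0.39), and Myh9, a non-muscle myosin (0.23). The increases numbered 4, 3, 4 and 5 and the decreases 0, 0, 1 and 0 with a library left out. Among 14 ETS factors 6 rose and 3 fell (6, 3, 4 and 6 increases with a library left out). Ets1 (12.3 and 12.5 to 9.15 and 9.95 FPKM, −0.35) and Elf3 (25.6 and 25.6 to 16.6 and 17.5, −0.56) were lower. The 14 KLF and SP factors had 4 increases and 1 decrease, that of Klf11 (−0.44).

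STAT3 is phosphorylated on the inner side of cytokine and growth factor receptors and turns on its own inhibitor, Socs3. Of 29 genes of that pathway, 11 rose, 4 fell and 14 did not pass (median 0.081). Socs3 had 3.85 and 3.56 FPKM in water and 6.49 and 6.34 after EGF (0.66 ± 0.056, limma adjusted p = 4.22e-04). Stat3 had 28.6 and 28.1 FPKM in water and 32.4 and 33.9 with EGF (0.22 ± 0.033, limma adjusted p = 0.00376). In both, as in every gene called higher, the lowest EGF library was above the highest water library. Other increases were Socs5 (0.47), Mcl1, a survival protein (0.28), Stat6 (0.34), and Bcl2l1 and Il6ra, given above. The textbook STAT3 targets Pim1 (8.197 and 8.06 to 5.77 and 5.898 FPKM, −0.42) and Pim3 (20.6 and 20.5 to 14.97 and 15.8 FPKM, −0.40), which are survival kinases, fell. Decreases numbered 2, 2, 2 and 5.

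Pomc was the most abundant protein-coding gene and did not pass the test. It stood at 8240.3 and 8307 FPKM in water and at 6981 and 7430.2 after EGF, both EGF libraries below both water libraries (log2 fold change −0.20 ± 0.065, 95% interval −0.35 to −0.047, limma adjusted p = 0.0531). Fits in which it passed as lower included those with a pseudocount of 0.1, with protein-coding genes only in the fit, without the variance trend and without EGF 2. Of 28 corticotrope genes, 4 rose, 8 fell and 16 did not pass (median −0.069). Tbx19, the factor that commits cells to make Pomc, did not pass (88.4 and 92.4 FPKM in water and 84.9 and 83.8 with EGF, −0.098), nor did Neurod1 (0.12, called higher after median-ratio or common-sum scaling) or Pitx1 (0.024). Pcsk1, the convertase that cuts the precursor to ACTH, was lower by a small amount (394 and 397 to 353 and 372 FPKM, −0.12, limma adjusted p = 0.0387), and Nr3c1, the glucocorticoid receptor that mediates feedback on Pomc, by more (42.5 and 42.2 to 34.4 and 35.03 FPKM, −0.28 ± 0.029, limma adjusted p = 9.31e-04). Sstr2, a somatostatin receptor, rose (27.1 and 28.03 to 31.1 and 33.2 FPKM, 0.22). The largest increase of the list was that of Hes1, described above. After median-ratio or common-sum scaling 6 rose and 6 fell. Increases of the list numbered 2, 3, 4 and 3 and decreases 5, 6, 7 and 9, and the call of Pcsk1 was lost without water 1, water 2 or EGF 1, and that of Sstr2 without water 1.

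Genes of the secretory granule moved in both directions. Of 27, 5 rose, 6 fell and 16 did not pass (median −0.013). Vgf, a granin that neurotrophins and EGF induce in neuroendocrine cells, had 28.6 and 29.4 FPKM in water and 56.6 and 57.96 after EGF (0.96 ± 0.049, limma adjusted p = 5.08e-05), and Syt4, a synaptotagmin of granules, 46.7 and 46.9 in water and 72.8 and 64.4 with EGF (0.54). Pam, the enzyme that amidates peptide hormones, fell (81.5 and 82.01 to 71.2 and 72.9 FPKM, −0.18), as did Syt13 (−0.27). Chga, Chgb and Scg2, the main granins, had log2 fold changes of −0.092, 0.020 and 0.048 and did not pass. Called increases and decreases were 6 and 5 after median-ratio scaling and 8 and 3 after common-sum scaling. With a library left out, 2, 3, 2 and 4 rose and 2, 3, 3 and 7 fell.

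Most of the FOXO targets that passed the test were lower. FOXO factors switch on genes of growth arrest, catabolism and autophagy until AKT removes them from the nucleus. Of 46 measured, 6 rose, 25 fell and 15 did not pass, which is 54.3% lower against 20.7% of all genes, with a median of −0.19. Beside Sgk1, Klhl24, Hbp1, Ccng2, Ypel3 and Mxd4, Fbxo32, the atrogin-1 ubiquitin ligase of muscle wasting, had 4.78 and 4.99 FPKM in water and 1.61 and 1.66 after EGF (−1.16 ± 0.057, limma adjusted p = 4.72e-05). Mxi1 (11.7 and 11.03 to 7.46 and 7.81 FPKM, −0.52), Ypel5 (−0.47) and Gadd45b (−0.44) were lower too. Receptors that FOXO factors keep up, Erbb3 and Insr, the insulin receptor (10.5 and 10.7 to 8.57 and 8.32 FPKM, −0.30), fell with them. Among the factors themselves, Foxo3 (15.3 and 15.8 to 11.2 and 11.6 FPKM, −0.42) and Foxo4 (−0.23, not called without water 2) were lower and Foxo1 was higher from a low level (1.44 and 1.32 to 2.42 and 2.14 FPKM, 0.46). Trib1 (9.29 and 9.23 to 12.8 and 13.1 FPKM, 0.44) and Trib2 (7.04 and 7.21 to 12.1 and 12.2 FPKM, 0.70), pseudokinases, rose. Several well-known targets stayed within 0.1 of 0, such as Cdkn1b (−0.036), Bcl2l11 (−0.054) and Sod2 (−0.060), and did not pass. The decreases numbered 19, 19, 20 and 24 with a library left out and 23 after length correction, and the increases 4, 3, 3 and 5. Common-sum scaling gave 10 higher and 22 lower.

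Of 10 genes of the MYC and MAX network, 2 rose, 7 fell and 1 did not pass (median −0.31; 6, 4, 5 and 6 decreases with a library left out). Max, the common partner (17.8 and 18.2 to 24.3 and 23.7 FPKM, 0.39), and Mlx (75.5 and 76.8 to 94.6 and 100.9, 0.36) rose, whereas the MYC antagonists Mxd4, Mxi1 and Mnt (−0.35) and the MYC proteins Mycl and Mycn (4.51 and 4.84 to 3.24 and 3.68 FPKM, −0.35) fell. Mnt lost its call without water 2, and Mycn without water 2 or EGF 1. The MYC antagonists and MYC proteins named here thus moved in the same direction, opposite to Max and Mlx. Of 16 genes of the glucocorticoid receptor, 1 rose, 7 fell and 8 did not pass (median −0.14). Sgk1 and Tat fell most, and beside Nr3c1, the receptor itself, Tsc22d1 (57.1 and 60.8 to 48.1 and 50.4 FPKM, −0.25), Glul, glutamine synthetase (−0.22), and Ddit4 (−0.21) were lower. Fkbp5, a common readout of glucocorticoid action, had 9.22 and 9.88 FPKM in water and 10.2 and 11.1 with EGF and did not pass (0.14). The one increase was Errfi1. Tsc22d3 lost its call without water 1, water 2 or EGF 1. With common-sum scaling the glucocorticoid list had 2 higher and 6 lower. Sgk1, Tsc22d3 and Ddit4 stand on this list and on the FOXO list.

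The cell cycle lists showed 1 large increase and many small decreases. Called lower were 40.7% of mitosis, 26.8% of replication, 26.2% of repair and 16.7% of G1 control genes, against 20.7% of all genes. Only the mitosis share was well above that of all genes. Of 30 CDK inhibitors and G1 regulators, 6 rose, 5 fell and 19 did not pass (median 0.039). Cdkn2b is described above. Cdkn1a, the p53 target p21, rose (14.7 and 14.998 to 19.3 and 18.8 FPKM, 0.34), while Cdkn2c (122 and 118 to 100.5 and 103, −0.24) and Cdkn2d (52.5 and 49.5 to 39.03 and 41.1, −0.34), inhibitors of the same G1 kinases as Cdkn2b, fell. The INK4 inhibitors thus did not move as one. Among 81 genes of mitosis 2 rose, 33 fell and 46 did not pass (median −0.10), the decreases led by Cdca5, sororin of the cohesin ring (25.3 and 25.1 to 19.6 and 19.2 FPKM, −0.36), and the kinetochore gene Ndc80 (38.2 and 37.3 to 29.7 and 30.4, −0.32). Among 56 genes of DNA replication 1 rose, 15 fell and 40 did not pass (median −0.090), with Tk1, thymidine kinase (56.4 and 55.9 to 43.9 and 45.8 FPKM, −0.32), lowest and Rrm2, a subunit of ribonucleotide reductase (63.4 and 63.4 to 72.3 and 71.7, 0.18), the one increase. Of 65 DNA repair genes, 1 rose and 17 fell (median −0.10), with the checkpoint kinase Chek2 lowest (13.04 and 14.4 to 9.25 and 9.92 FPKM, −0.48). These counts depended on single libraries. Decreases numbered 13, 16, 22 and 36 for mitosis, 2, 5, 5 and 22 for replication and 10, 7, 8 and 19 for repair, and 28, 12 and 19 after length correction. The increases of mitosis genes numbered 0, 0, 0 and 1 and those of repair genes 1, 0, 1 and 1. For G1 control, 2, 4, 3 and 4 rose and 3, 3, 4 and 4 fell. Common-sum scaling gave 7 higher and 3 lower for G1 control, 4 higher and 21 lower for mitosis, 3 higher and 12 lower for replication and 2 higher and 11 lower for repair.

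Most histone genes were called lower in the fit of all libraries. Of 70 canonical and variant histone genes, 0 rose and 58 fell (median −0.22). Among the largest differences in FPKM were those of Hist2h2bb (1539 and 1577 FPKM in water, 1314 and 1379.7 after EGF, −0.21), Hist1h4c (1291 and 1308 in water and 1106 and 1142 with EGF, −0.21) and H2afz (754 and 791 in water and 619 and 663 with EGF, −0.27). EGF 1 was the lower of the 2 EGF libraries in all 3. Canonical histone transcripts are short, carry no poly(A) tail and have near-identical copies, so values of single genes are uncertain. After length correction 20 of them were lower, and 28, 25, 38 and 58 with a library left out.

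Genes of cell death and p53 split. Of 39, 10 rose, 12 fell and 17 did not pass (median −0.034), 11 rose and 10 fell after median-ratio scaling, and 11 rose and 6 fell after common-sum scaling. Beside Plk2 and Bcl2l1, Plk3 (8.27 and 8.603 to 15.03 and 15.4 FPKM, 0.78) and the pro-death Bak1 (5.68 and 6.34 to 8.62 and 8.48, 0.45) rose. Sesn1, a sestrin that p53 and FOXO induce (10.7 and 10.9 to 8.08 and 8.12 FPKM, −0.37), and the pro-death Bbc3, PUMA (18.6 and 17.6 to 14.3 and 15.1, −0.28), fell. With a library left out, 6, 8, 7 and 8 rose and 4, 6, 4 and 10 fell, and Bbc3 lost its call without water 1 or EGF 1.

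Genes of cholesterol and fatty acid synthesis held more called increases than decreases, most of modest size. Of 44 genes of this SREBP-driven pathway, 22 rose, 3 fell and 19 did not pass, which is 50% higher against 13.2% of all genes (median 0.14). Hmgcs1, an early enzyme of cholesterol synthesis, whose promoter is printed above and which was picked for that, had 122 and 121 FPKM in water and 152 and 144 with EGF (0.28 ± 0.048, limma adjusted p = 0.00561). Hsd17b7 (0.39), Elovl1 (0.38), Stard4, a sterol carrier (0.35), Fasn, fatty acid synthase (0.29), and Srebf2, the sterol-sensing factor itself (0.24), rose with them, Srebf2 not without water 1 or EGF 1. The pathway was not uniform: Fdps (−0.14) and Tm7sf2 (−0.20) were called lower, but not after common-sum scaling or without water 1, water 2 or EGF 1, and Mvk (−0.051), Pmvk (−0.029) and Fdft1 (−0.014) did not pass. Lpin1, a phosphatidate phosphatase that also acts on SREBP, fell from 9.89 and 9.96 to 6.396 and 6.81 FPKM (−0.52 ± 0.068, limma adjusted p = 0.00213). The decreases numbered 1, 1, 1 and 4.

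In glycolysis and hypoxia, 5 rose, 14 fell and 23 did not pass of 42 (median −0.087). Slc16a1, a lactate and pyruvate transporter (38.8 and 38.8 to 59.1 and 59.8 FPKM, 0.60), and Ero1l, an oxidase of the endoplasmic reticulum (23.7 and 23.3 to 32.3 and 31.7, 0.43), rose beside Bhlhe40, and Narf and Mxi1 fell. The increases numbered 4, 4, 4 and 3 and the decreases 6, 6, 5 and 11, and 9 and 8 after median-ratio and common-sum scaling. Of 18 clock genes, 3 rose, 7 fell and 8 did not pass (median −0.12; 2, 2, 3 and 3 higher and 5, 5, 4 and 7 lower with a library left out). After common-sum scaling 4 higher and 6 lower were called. Both limbs of the clock were touched: Cry1, a repressor (8.899 and 8.46 to 11.3 and 11.5 FPKM, 0.36), rose, while Arntl, the activator BMAL1 (9.73 and 9.58 to 7.37 and 7.47, −0.34), and Nr1d2, the repressor REV-ERB beta (14.5 and 14.1 to 9.204 and 9.29, −0.57), fell.

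Ribosome biogenesis genes held many small increases and ribosomal protein genes no called increase. Of 100 ribosome biogenesis genes, 36 rose, 3 fell and 61 did not pass (median 0.086), the increases small, as in Wdr43, a processome factor (34.9 and 34.5 to 42.99 and 44.05 FPKM, 0.32), Tcof1, treacle, which supports RNA polymerase I (12.6 and 12.6 to 15.9 and 15.7, 0.30), and Nop58, a core protein of box C/D particles (308 and 301 to 340.2 and 341, 0.16). Nop58 lost its call with any library left out. The increases numbered 15, 12, 26 and 22 and the decreases 0, 0, 1 and 2 with a library left out, and the increases 51 after length correction. Among 80 cytosolic ribosomal proteins 0 rose and 23 fell (median −0.12), among 77 mitochondrial ones 0 and 28 (−0.11), among 77 respiratory chain subunits 0 and 33 (−0.13), and among 44 proteasome subunits 0 and 10 (−0.089). Common-sum scaling gave 61 higher and 1 lower for ribosome biogenesis, 0 higher and 11 lower for cytosolic ribosomal proteins, 3 higher and 14 lower for mitochondrial ones and 5 higher and 5 lower for the proteasome. Quantile normalization gave 3 higher and 4 lower for cytosolic ribosomal proteins. The genes of these lists are mostly short. After length correction, 2 and 2 cytosolic ribosomal protein genes, 6 and 9 mitochondrial ones, 4 and 7 respiratory chain genes and 4 and 3 proteasome genes were higher and lower. With a library left out the decreases numbered 1, 1, 3 and 57 among cytosolic ribosomal proteins, 4, 4, 6 and 40 among mitochondrial ones, 2, 4, 6 and 50 in the respiratory chain and 1, 0, 0 and 18 in the proteasome, the highest count each time without EGF 2.

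Stress pathways were counted list by list. Of 52 tRNA synthetases and targets of the stress factor ATF4, 2 rose and 10 fell (median −0.049), or 9 and 8 after common-sum scaling. Atf4 itself (230.5 and 227 to 192 and 196 FPKM, −0.24) and its targets Chac1, a glutathione-degrading enzyme (114 and 113 to 84.1 and 85.6, −0.42), and Nupr1 (29.4 and 29.3 to 22.8 and 23.95, −0.32) were lower, with the 2 EGF libraries close together. Of 49 genes of folding in the endoplasmic reticulum, 13 rose and 6 fell (0.031), with the stress sensor Ern1 (10.6 and 10.8 to 14.7 and 14.5 FPKM, 0.41) and its product's target Xbp1 (116 and 119 to 137 and 140.1, 0.24) higher and Herpud1 lower (−0.22). Among 33 genes of heat shock and oxidative stress 4 rose and 4 fell (−0.021), with Bag3, a co-chaperone, highest (3.89 and 4.47 to 6.37 and 6.12 FPKM, 0.49) and Gpx4, which guards against lipid peroxides, lowest (272 and 274 to 214 and 232, −0.29). Of 18 interferon-induced genes 2 rose and 0 fell (0.017), among them Irf1 (8.603 and 8.04 to 12.7 and 14.2 FPKM, 0.63 ± 0.061, limma adjusted p = 6.59e-04). Igtp, the immunity-related GTPase given above, is not on that list and not in its count. Of 9 genes of NF-kB 1 rose, Nfkbie, and 0 fell (0.033). Nfkb1 (0.018) and Traf2 (0.032) did not pass. With a library left out, the ATF4 list had 1, 1, 2 and 2 increases and 6, 6, 7 and 13 decreases, ER folding 7, 5, 10 and 11 increases and 1, 1, 2 and 8 decreases, the heat shock list 2, 1, 3 and 4 higher and 1, 1, 1 and 6 lower, and the interferon list 1, 1, 1 and 1 increases. These splits moved with the scaling. Median-ratio and common-sum scaling gave 9 higher and 3 lower and 11 higher and 3 lower for heat shock and oxidative stress, and 19 higher and 5 lower and 21 higher and 3 lower for ER folding.

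The lists of kinases, phosphatases and adapters of receptor signalling held more called increases than decreases. Called higher and lower were 15.9% and 4.76% of the MAPK and PI3K list and 27.7% and 14.9% of phosphatases. For SH2 adapters the shares were 38.1% and 9.52%, and for other receptor tyrosine kinases 23.1% and 7.69%. Over all genes they were 13.2% and 20.7%, so the share of increases in the MAPK and PI3K list was near that of all genes. Of 63 genes of the MAPK and PI3K cascades, 10 rose, 3 fell and 50 did not pass (median 0.030), with Pik3r1, the regulatory subunit of PI3K (11.4 and 10.8 to 16.1 and 15.8 FPKM, 0.49), Map2k3, a kinase upstream of p38 (14.3 and 12.6 to 18.6 and 19.97, 0.49), and Rps6ka2, a ribosomal S6 kinase below ERK (0.41), higher and Deptor, an inhibitor of mTOR, lower (4.199 and 4.502 to 2.95 and 2.72, −0.48). Among 47 protein phosphatases 13 rose, 7 fell and 27 did not pass (0.018), Ptpn12 (4.54 and 4.903 to 7.66 and 8.47 FPKM, 0.66) and Ptprj (0.49) following the dual-specificity enzymes. Of 21 SH2 adapters, 8 rose, 2 fell and 11 did not pass (0.12): Shb (3.07 and 3.01 to 6.17 and 6.59 FPKM, 0.87) and Sh2b3 (0.55) rose and Grb7 fell (15.7 and 15.5 to 10.9 and 10.5, −0.51). Among 13 receptor tyrosine kinases outside the EGFR family 3 rose and 1 fell (0.012), with Ephb2 highest (0.38) and Insr lowest. With a library left out, the MAPK and PI3K list had 6, 6, 7 and 9 increases and 1, 1, 1 and 3 decreases, phosphatases 8, 7, 8 and 11 higher and 3, 4, 4 and 8 lower, SH2 adapters 5, 4, 7 and 5 higher and 1, 1, 1 and 2 lower, and receptors 1, 1, 1 and 2 higher and 1, 1, 1 and 1 lower. After common-sum scaling there were 19 higher and 1 lower in the MAPK and PI3K list, 15 higher and 4 lower among phosphatases and 10 higher and 1 lower among SH2 adapters.

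G protein signalling and membrane transport moved in both directions. Of 59 genes of cAMP and G protein signalling, 15 rose, 12 fell and 32 did not pass (median 0.0047). Rgs2 (5.12 and 4.47 to 9.76 and 11.1 FPKM, 0.98) and Rgs4 (1.02 and 0.923 to 2.38 and 2.48, 0.80), which switch G proteins off, rose behind Gprc5c. Pkib, an inhibitor of protein kinase A (97.8 and 97.3 to 72.7 and 78.6 FPKM, −0.36), and Sik1, a kinase that cAMP induces (11.6 and 11.8 to 9.18 and 9.33, −0.31), fell. Of 50 ion channel genes, 9 rose, 7 fell and 34 did not pass (0.0027), with Stim2, a calcium store sensor, higher (25.5 and 22.99 to 33.5 and 37.02 FPKM, 0.52) and the potassium channels Kcnj3 (15.3 and 16.3 to 10.7 and 9.99, −0.57), Kcnn3 (−0.52) and Kcnk16 (−0.43) lower. Potassium channels thus stood at both ends of this list. Of 139 solute carriers, 23 rose, 24 fell and 92 did not pass (−0.025), or 34 and 13 higher and lower after common-sum scaling, with Slc2a8, a glucose transporter, lowest (5.87 and 6.14 to 3.73 and 3.85 FPKM, −0.55). In the 4 fits without a library, the G protein list had 8, 7, 9 and 12 increases and 4, 8, 4 and 10 decreases, ion channels 5, 5, 5 and 8 higher and 4, 5, 5 and 8 lower, and solute carriers 13, 12, 16 and 16 higher and 7, 9, 10 and 21 lower. Common-sum scaling turned the G protein list to 20 higher and 8 lower and ion channels to 13 higher and 5 lower.

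Developmental pathways and the cell surface held called changes in both directions. Among 22 TGF-beta and BMP genes 8 rose, 3 fell and 11 did not pass (median 0.10). The repressors Tgif1 (6.63 and 7.03 to 12.2 and 12.9 FPKM, 0.79) and Ski (5.35 and 5.15 to 7.64 and 7.43, 0.45) and the secreted Gdf15 (31.97 and 31.5 to 43.97 and 42.4, 0.43) rose, and Smad9 (−0.43) and Bambi (−0.41) fell. Among 17 Notch genes 5 rose, 4 fell and 8 did not pass (0.096): beside Hes1, the ligand Jag2 rose (28.8 and 28.2 to 35.6 and 36.6 FPKM, 0.33), and Lfng, a glycosyltransferase of the receptor (42.9 and 43.2 to 30.6 and 33.001, −0.43), Hes6 (−0.27) and Tcf4 (−0.36) fell. Of 20 WNT genes 4 rose, with the receptor Fzd7 highest (2.396 and 2.61 to 4.22 and 4.14 FPKM, 0.57), and 2 fell (−0.0022), and of 13 Hippo genes 5 rose, with Frmd6 highest (0.70), and 2 fell, with Amotl2 lowest (0.066). Among 38 genes of adhesion, matrix and guidance 10 rose, 2 fell and 26 did not pass (0.049). Plaur, the receptor of urokinase, had 1.46 and 1.14 FPKM in water and 4.75 and 5.23 after EGF (1.39 ± 0.085, limma adjusted p = 1.08e-04), and Plat, tissue plasminogen activator, 4.85 and 5.12 in water and 10.6 and 11.1 with EGF (0.99 ± 0.050, limma adjusted p = 5.08e-05). Efnb1, an ephrin (14.02 and 14.6 to 22.4 and 24.4 FPKM, 0.67), rose and Ntn4, a netrin, fell (−0.34). Of 51 small GTPase and cytoskeletal genes 9 rose and 4 fell (0.069), with Pak2 (0.25) higher and Arhgef2 (−0.25) lower. Over those 4 fits, the decreases of TGF-beta and BMP genes numbered 2, 2, 2 and 3 and those of adhesion genes 1, 1, 1 and 1. Genes called were 3, 3, 5 and 4 higher and 3, 3, 3 and 4 lower for Notch, 1, 1, 1 and 3 higher and 1, 0, 0 and 0 lower for WNT, 2, 1, 1 and 3 higher and 1, 1, 1 and 1 lower for Hippo and 5, 4, 5 and 9 higher and 2, 2, 3 and 7 lower for GTPase and cytoskeletal genes. With common-sum scaling the counts were 11 higher and 2 lower for TGF-beta and BMP, 6 higher and 3 lower for Notch, 6 higher and 0 lower for WNT, 6 higher and 1 lower for Hippo and 18 higher and 3 lower for GTPase and cytoskeletal genes. After length correction WNT genes were 3 higher and 3 lower.

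Among genes of lysosomes and autophagy 31% were called lower and 4.23% higher, against 20.7% and 13.2% of all genes. Among adapters of ubiquitin ligases 28.3% were lower and 16.8% higher. More decreases than increases were also called over all genes, and the adapters did not keep that order after common-sum scaling. Of 71 genes of lysosomes and autophagy, 3 rose, 22 fell and 46 did not pass (median −0.092). Among the decreases were Pik3c3, the lipid kinase VPS34 (20.04 and 20.02 to 13.1 and 14.4 FPKM, −0.51), Atg13 (8.87 and 8.84 to 6.54 and 6.55, −0.38), part of the kinase complex that starts autophagy, and the cargo receptor Nbr1 (75.3 and 74.2 to 53.6 and 57.7, −0.42). The lysosomal membrane protein Lamp1 (−0.070) and the protease Ctsb (−0.082) did not pass. Of 113 adapters of ubiquitin ligases, 19 rose, 32 fell and 62 did not pass (−0.049), or 28 and 20 higher and lower after common-sum scaling. Its extremes, Enc1, Socs3, Klhl24, Fbxo32 and Fbxl20, are given above, and Btbd17 rose at a higher level (59.1 and 60.8 to 84.5 and 90.3 FPKM, 0.54). Common-sum scaling gave 5 higher and 16 lower for autophagy and lysosomes. When each library was left out, autophagy and lysosome genes had 0, 0, 1 and 0 increases and 6, 8, 9 and 25 decreases, and ligase adapters 11, 11, 12 and 18 higher and 13, 14, 14 and 31 lower.

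Regulators of chromatin and RNA had mostly small changes. Among 198 genes named Zfp, mostly zinc finger factors, 16 rose, 30 fell and 152 did not pass (median −0.046), among 107 chromatin enzymes 13 rose, 21 fell and 73 did not pass (−0.017), and among 121 splicing factors 19 rose, 11 fell and 91 did not pass (0.031). After common-sum scaling these were 21 and 21, 20 and 10, and 35 and 6 higher and lower, so the first 2 have no direction that holds over the scalings. Ezh1, a histone methyltransferase of polycomb (10.3 and 9.71 to 6.68 and 6.77 FPKM, −0.51), and Kmt5c (−0.44) were lower and Rcor1, a corepressor (0.42), higher. In mRNA decay 8 of 44 rose and 3 fell (0.037), in translation 16 of 68 rose and 6 fell (−0.0030), and in nuclear transport 13 of 55 rose and 3 fell (0.051). After common-sum scaling these were 10 higher and 2 lower in decay, 22 higher and 1 lower in translation and 28 higher and 2 lower in nuclear transport. Examples were Etf1, the translation release factor (94.3 and 93.3 to 114 and 113 FPKM, 0.27), Eif1a, an initiation factor (0.30), and Ranbp2, a nucleoporin (62.2 and 60.8 to 79.4 and 77.2, 0.34). Of 37 genes of polyamine, serine and one-carbon metabolism 3 rose, with Mat2a, which makes S-adenosylmethionine, highest (73.1 and 71.9 to 94.6 and 93.8 FPKM, 0.37), and 8 fell (−0.021), or 7 and 5 after common-sum scaling. Without each library in turn, genes called were 12, 7, 7 and 14 higher and 16, 22, 18 and 31 lower for Zfp genes, 6, 5, 5 and 11 higher and 7, 6, 6 and 16 lower for chromatin, 6, 5, 8 and 20 higher and 3, 2, 4 and 12 lower for splicing, 4, 3, 2 and 10 higher and 2, 1, 1 and 5 lower for decay, 7, 5, 8 and 10 higher and 0, 3, 2 and 10 lower for translation, 5, 4, 6 and 9 higher and 1, 2, 1 and 7 lower for nuclear transport and 2, 1, 3 and 2 higher and 2, 2, 3 and 10 lower for the metabolic list.

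**Figure D3:**
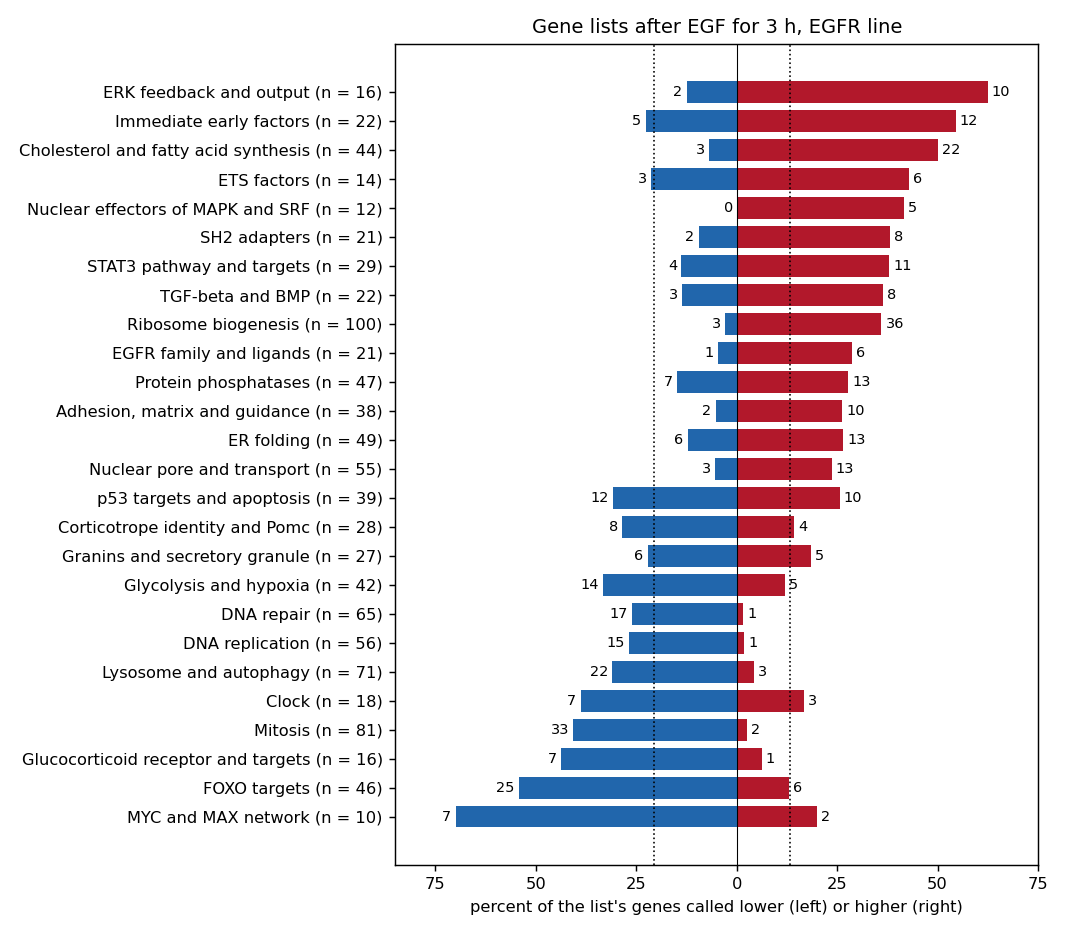
Percent of the measured genes of 26 of the 55 lists called higher (red, right) or lower (blue, left) at a limma adjusted p below 0.05, with the number of genes at the end of each bar. Dotted lines mark the shares over all 9138 genes, 13.2% higher and 20.7% lower.

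In FPKM, the largest called increases included those of Dusp5, Actg1, Bcl2l1, Ifrd1, a coregulator of transcription (143 and 148 to 196 and 186 FPKM, 0.39), Enc1, Etv5 and Nop58. The largest called decreases were those of the histone genes Hist2h2bb, Hist1h4c, Hist1h4h and H2afz, the ribosomal protein genes Rpl13a (1714 and 1728 to 1479 and 1575 FPKM, −0.17), Rps14 (893 and 899.6 to 706 and 766, −0.28) and Rplp0 (−0.15), and Atp5b, a subunit of ATP synthase (1842 and 1848 to 1636 and 1701, −0.15). Rplp0 reversed its direction after quantile normalization (0.021, not called). Atp5b was not called after median-ratio scaling, common-sum scaling, quantile normalization or length correction. Nor was it called without the filter on low FPKM or with only the 4 libraries compared in the fit. EGF 1 read lower than EGF 2 in each of these 8 genes. Atp5b, Rpl13a and Rplp0 lost their calls without water 1, water 2 or EGF 1, H2afz likewise, and Hist2h2bb and Hist1h4c without water 1 or water 2.

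Genes with large changes did not share the short transcripts of the small decreases. The median longest transcript was 3258 bases among the 103 genes called at least 1.5-fold higher, 3545 bases among the 31 called at least 1.5-fold lower, 2376 bases among the 1858 with smaller called decreases, 3892 bases among the 1103 with smaller called increases and 3040.5 bases over all 9138 genes. They were expressed at lower levels, with a median of 7.47 FPKM in the larger increases and 9.17 FPKM in the larger decreases against 18.8 FPKM over all genes. Single-exon genes made up 9.68% of the 31 larger decreases, 1.94% of the 103 larger increases and 3.24% of all genes. The first 2 shares rest on very few genes, so their difference is only a description.

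The 18 h libraries of the EGFR line show where the largest early changes stood later. No water library is titled 18 h, so time in culture and EGF cannot be told apart, and the comparison of 18 h with 3 h shares the 3 h libraries with that against water. Over all loci tested, 17.7% were higher and 16.0% lower at 18 h than at 3 h. Nab2 stood at 16.3 and 17.7 FPKM at 3 h and at 5.84 and 6.19 at 18 h, near its water values of 5.0999 and 5.19 (18 h minus 3 h −1.36, limma adjusted p = 2.81e-05). Hbegf (10.5 and 10.9 FPKM at 18 h), Sh2d5 (5.001 and 4.36) and Nfkbie (3.13 and 3.06) were also lower at 18 h than at 3 h, by 0.61, 0.71 and 0.57 on the log2 scale. In contrast Cdkn2b reached 42.1 and 44.6 FPKM (0.74, limma adjusted p = 1.09e-04), Etv5 71.7 and 69.6 (0.57) and Stc1 29.5 and 27.7 (0.63). Dusp5, with 99.3 and 99.6 FPKM, and Bcl2l1, with 80.3 and 83.3, had no call between the times. Of the genes that fell, Hbp1 read 23.8 and 24.8 FPKM at 18 h (0.84 above 3 h), Fbxl20 9.19 and 9.12 (0.82), Klhl24 10.7 and 11.1 (0.76) and Mxd4 6.92 and 6.79 (0.68), while Tat (6.16 and 4.64) and Abhd15 (5.76 and 5.796) had no call between the times. Pomc, at 7429 and 7827 FPKM, did not differ from 3 h by the test (0.082, limma adjusted p = 0.364), and Tbx19, at 113 and 107, was higher than at 3 h (0.38).

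Values cover a gene locus, and reads from near-identical copies or overlapping genes cannot be assigned. Of 366 genes chosen by the naming rule, 88 have a stretch of at least 200 bases that is at least 95% identical to a transcript of another gene. Among the 45 largest changes these are Abhd15, Dusp5, Etv5, Fbxl20, Foxn3, Hbp1, Mxd4, Nab2, Stc1 and Synj2. Dusp5 shares 547 bases at 100% identity with AC137853.2, whose reads could not be separated from its own there. No label states whether the libraries kept strand.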

How the data were processed

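RNA of 8 cell libraries was sequenced on Illumina instruments after reverse transcription, per the labels' protocols. The authors deposited FPKM values per gene locus for each library. Reads were processed with HTSeq 0.5.4, TopHat2 2.0.8, Trimmomatic 0.22 and DESeq on mm10, per the submitters' processing notes, which give no order. The program that gave FPKM, its locus filter and strandedness are stated in no label or header.

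Loci were joined on Ensembl ID, and 648 small RNA loci and 20 extra loci with a repeated ID were left out. With limma 3.58.1 (R 4.3.3), log2(FPKM + 1) of 10874 loci that passed the same FPKM filter was fitted over all 4 groups of 2 libraries with a mean-variance trend, and p-values were adjusted by Benjamini-Hochberg over all loci, with a threshold of 0.05. The fit was also run on simulated data with independent noise and no length or scaling trend between libraries. That run cannot show how such trends affect the calls. Precision is limited by n = 2 per group, and depth is known only roughly. Named genes were the 25 largest called increases and 20 largest called decreases with a mean of at least 5 FPKM in the higher group, no overlap between groups and no clone-type, pseudogene, ribosomal or histone name, up to 4 called genes each way per list, those crossing 1 FPKM and the 8 largest called differences in FPKM each way; others are named as textbook members of their list or were chosen after their values were seen. The members and lists were chosen with earlier results of these data known. Alternatives changed the pseudocount, filter, scaling, libraries and loci in the fit, trend, threshold, replicate block and, chosen after seeing the data, transcript length. Near-identical transcripts were found with minimap2 2.31. Promoters come from RefSeq (GRCm38.p6), in which 7217 of the 9138 genes had an entry. Some genes are not reported here.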

Additional observations from a re-analysis of the deposited data

Results flagged for a closer look

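Of the 45 genes with the largest changes at 3 h, 31 had a different level after 18 h of EGF by a limma adjusted p below 0.05 for the contrast of the EGF times. Over all loci tested that contrast called 17.7% higher and 16.0% lower, and the 45 genes were picked for extreme values in the same 3 h libraries, so their share is a description. Both times have 2 libraries, no 18 h water library was used, and the contrast shares its 3 h libraries with the comparison with water. Values are log2 differences of FPKM + 1, 18 h minus 3 h. Among the genes that rose at 3 h, the level was higher still at 18 h in Cdkn2b (0.74), Stc1 (0.63), Etv5 (0.57), Maff (0.40) and Plk2 (0.32). It was lower at 18 h than at 3 h in Nab2 (−1.36), Sh2d5 (−0.71), Hbegf (−0.61), Nfkbie (−0.57), Bhlhe40 (−0.48), Sgms2 (−0.45), Hes1 (−0.32), Garem1 (−0.31), Scml4 (−0.28), Rhbdf2 (−0.25) and Enc1 (−0.15). Among the genes that fell at 3 h, the level was higher at 18 h in Hbp1 (0.84), Fbxl20 (0.82), Klhl24 (0.76), Mxd4 (0.68), Narf (0.58), Foxn3 (0.53), Trp53inp1 (0.43), Ccng2 (0.40), Ypel3 (0.38), Spsb2 (0.38), Sgk1 (0.34), Amotl2 (0.33), Aldh1b1 (0.27) and Mycl (0.19), and lower in Prr15l (−0.19).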

How the results depend on the processing

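Under the alternatives run, the genes called in both fits never changed direction. The 45 genes of largest change kept their calls at an adjusted p below 0.05 under every alternative fit, as did 221 of the 353 named genes that were called, and these 2 counts leave out the stricter threshold. The number of genes called was less stable. From 1206 higher and 1889 lower, it went to 1916 and 1143 after common-sum scaling and to 582 and 719 at an adjusted p below 0.01. Leaving out each library in turn gave 581 to 983 higher and 721 to 1975 lower. With the replicate block it was 1089 and 1684, but the numbers do not pair the samples: the deviations of same-numbered water and EGF libraries correlated at −0.0055 across genes, so the block only shares a number. Pomc passed as lower with that block. Rplp0 alone among the named genes reversed, to 0.021 after quantile normalization (limma adjusted p = 0.723). Except where a value above shows it, the cause was not tested. With 2 libraries per group and no stated depth, small differences are limited by both.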
